A study of Mus musculus with 8 samples.

Results

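A set of genes of adrenergic signalling and of dopamine handling in the kidney were followed, which are 9 of the 55367 genes listed in the count table: the adrenergic receptor genes *Adra1a*, *Adra1b*, *Adra2a*, *Adra2b*, and *Adrb1*, the dopamine-synthesis gene *Ddc*, the vesicle transporter gene *Slc18a1*, and the monoamine oxidase genes *Maoa* and *Maob*. They were picked by name with their RNA levels in these same mice already known, so their differences between genotypes are given as a description, without *P* values. RNA-Seq was performed on whole kidneys of 8 C57BL/6J mice, labelled as 8 weeks old after birth. In all, 4 mice were *c-Maf*ΔTAM (ΔTAM mice), that is, *c-Maf* fl/fl mice that also carried the *CAG-Cre-ER*TM transgene, and 4 were *c-Maf* fl/fl mice without it (control mice). Both groups received tamoxifen (TAM). The CAG promoter is active in nearly all tissues, so the deletion was not limited to the kidney or to a nephron segment. Each library held 16649129 to 22990257 counts.

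*Maf*, the targeted gene, had 178, 671, 533, and 187 counts in the ΔTAM mice, against 5988 to 7746 in the control mice. The sex of the mice is not given in the sources used here. *Xist*, the transcript that silences an X chromosome in females, had 2 to 22 counts in ΔTAM mouse 1 and control mice 3 and 4, and 17618 to 22387 counts in the other 5 mice, and these are called low-*Xist* and high-*Xist* mice. Genes of the mitochondrial genome took 17.1% to 32.3% of the counts, the largest share in ΔTAM mouse 1. The labels name the liver in the RNA protocol but the whole kidney as the tissue. In ΔTAM mice, 8 hepatocyte marker genes summed to 28.8 to 34.7 CPM (counts scaled to a common library size). In control mice they summed to 30.2 to 55.2 CPM. Of the 8, 3 had no more than 3 counts in any mouse, 1 of these at 0 in every mouse, and the highest count was 970. Another 8 marker genes, of the S1 and S2 segments of the proximal tubule, summed to 8906 to 17102 CPM. Over all 20149 genes tested, 436 were past the threshold (adjusted *P* under 0.05 with edgeR's quasi-likelihood test), 118 higher and 318 lower in ΔTAM mice, which is 2.16% in either direction, 0.586% higher, and 1.58% lower.

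Adrenergic receptors are cell-surface receptors for noradrenaline, released by the renal sympathetic nerves, and for adrenaline from the adrenal medulla. Alpha-1 receptors couple mainly to Gq and phospholipase C and raise calcium, alpha-2 receptors couple to Gi and lower cyclic AMP, and beta receptors couple to Gs and raise it, and beta-1 receptors on juxtaglomerular cells promote renin release. The kidney also makes dopamine outside nerves: proximal tubule cells take up filtered L-DOPA and decarboxylate it with the enzyme encoded by *Ddc*, and the product acts on nearby dopamine receptors and lowers sodium reabsorption. Dopamine is stored in vesicles by the transporters VMAT1 (*Slc18a1*) and VMAT2 (*Slc18a2*), and monoamine oxidases are among the enzymes that break it down.

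In the Ensembl gene models on GRCm38 that were used for counting, *Adra1a* lies at chr14:66635251-66771168 on the plus strand, *Adra2b* at chr2:127363208-127367221 on the plus strand, *Ddc* at chr11:11814101-11898144 on the minus strand, and *Slc18a1* at chr8:69037711-69089235 on the minus strand. *Maoa* (chrX:16619698-16687818, plus strand) and *Maob* (chrX:16709282-16817366, minus strand) are neighbours on the X chromosome. *Adra1b* is at chr11:43774606-43901210 on the minus strand, *Adra2a* at chr19:54044151-54048982 and *Adrb1* at chr19:56722199-56733113, both on the plus strand. Counts were of reads over all exons, and no exon of the 9 genes overlapped an exon of another gene. Of all 36-base sequences in their transcripts, 0% (*Adra2a*, *Slc18a1*, *Maob*) to 6.05% (*Maoa*) also occurred in another gene's transcripts.

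c-Maf binds DNA at Maf recognition elements, and their short core TGCTGA and the TRE-type core TGACTCA and CRE-type core TGACGTCA were looked for on both strands in the 250 bases before the start of transcription, because the protein deleted here is known to bind such letters. RefSeq promoter sequences on GRCm38.p6 were at hand for 6 of the 9 genes (8 promoters: *Adra1b*, *Adra2a*, *Adra2b*, *Adrb1*, *Ddc*, and *Maoa*), and not for *Adra1a*, *Maob*, and *Slc18a1*. Matches are shown with the core in capitals, as read along each gene, with 20 bases on both sides:
*Ddc*, chr11:11890443-11890488, minus strand: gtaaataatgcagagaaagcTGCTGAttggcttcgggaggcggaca
*Maoa*, chrX:16619616-16619661, plus strand, core on the opposite strand: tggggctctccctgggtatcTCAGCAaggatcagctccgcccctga
*Adra1b*, chr11:43901409-43901455, minus strand, core on the opposite strand: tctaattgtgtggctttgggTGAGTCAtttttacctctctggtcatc
The first core was in 2 of the 8 promoters and in 16.1% of all 32851 promoters, the second in 1 and in 4.46%, and the third in 0 and in 1.55%. The matched places did not overlap each other. Those of *Maoa* and *Adra1b* lie before the gene, and that of *Ddc* lies between exons, before an internal start of transcription.

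*Adra1a* fell and *Slc18a1* rose in ΔTAM kidneys, and they were the 2 of the 9 genes past the threshold, 1 in each direction. Since the genes were chosen with this contrast known, nothing is read from that count against the 2.16% of all tested genes. In 3 of the 9 (*Adra1a*, *Slc18a1*, and *Maob*), the mice of the 2 genotypes did not overlap, as in 9.79% of all tested genes. All 9 genes passed the filter on low counts. The median log2 fold change of the 9 was -0.27, and that of all tested genes was 0.0027.

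**Figure D1:**
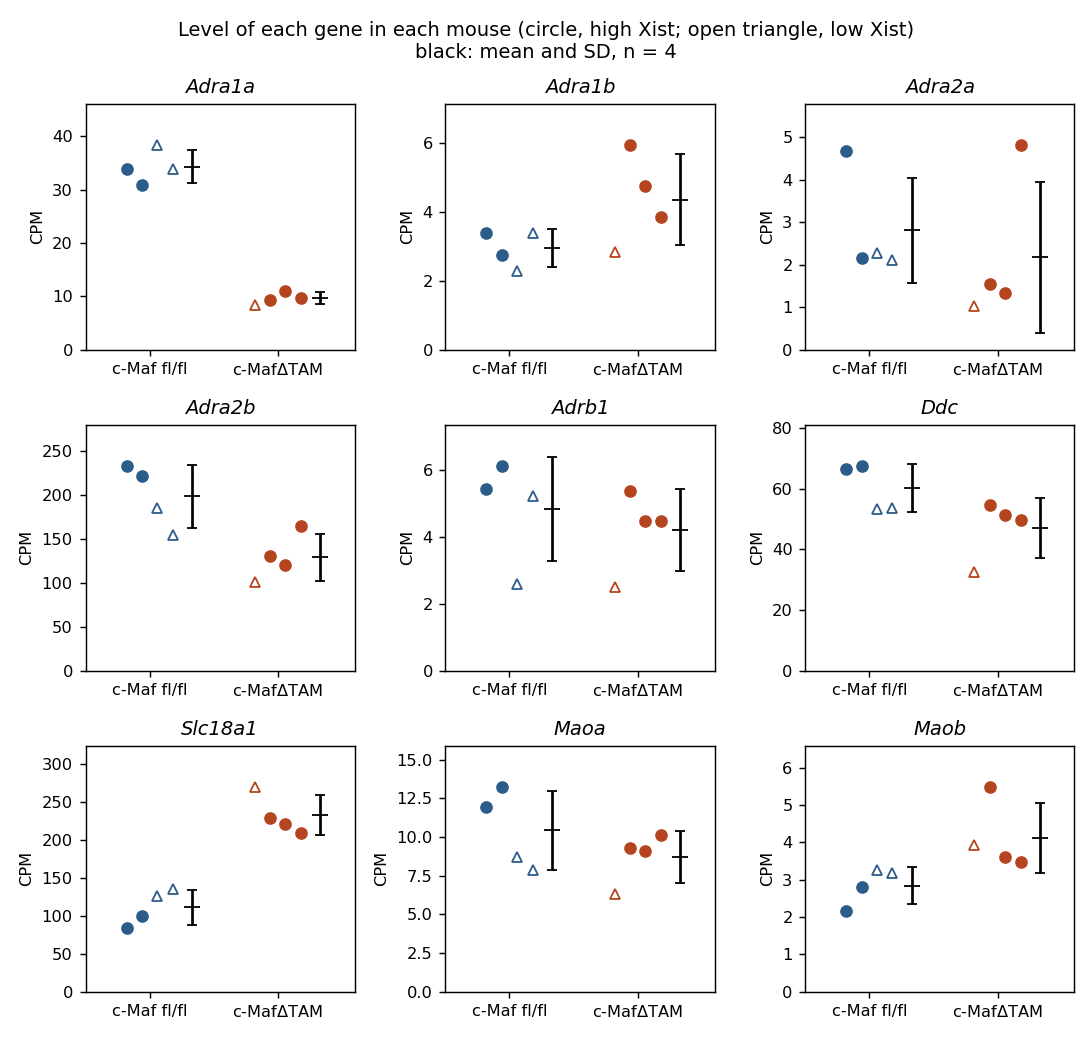
Level of each of the 9 genes in each mouse, in CPM on a linear axis that starts at 0, for control (blue) and ΔTAM (red) mice, with filled circles for high-*Xist* mice, open triangles for low-*Xist* mice, and the mean with its SD (n = 4) in black. In *Adra1a* the ΔTAM mice lie at 8.45 to 11.1 CPM and the control mice at 30.9 to 38.4 CPM, and in *Slc18a1* the order is the opposite, at 210 to 271 CPM and 84.6 to 135 CPM.

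*Adra1a* encodes the alpha-1A receptor, which in blood vessels mediates contraction. It was at 8.45, 9.35, 11.1, and 9.75 CPM in the ΔTAM mice, listed from mouse 1 to mouse 4 throughout, and at 33.8, 30.9, 38.4, and 33.8 CPM in the control mice. Every ΔTAM mouse was below every control mouse, and the gap between the groups was wider than the range within either. The means were 9.66 ± 1.10 CPM and 34.2 ± 3.10 CPM (SD, n = 4), a 3.55-fold lower level (log2 fold change -1.83, SE 0.11, 95% interval -2.07 to -1.58). The counts behind these values were 166 to 200 in ΔTAM mice and 577 to 757 in control mice. The log2 fold change was -1.69 among the 5 high-*Xist* mice and -1.90 to -1.76 with each mouse left out, past the threshold in 8 of 8 fits.

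The closely related *Adra1b*, the alpha-1B receptor gene, was at 2.85, 5.96, 4.77, and 3.84 CPM in ΔTAM mice and at 3.38, 2.75, 2.28, and 3.40 CPM in control mice. The groups overlapped through ΔTAM mouse 1, the lowest of its group. The log2 fold change was 0.56 (SE 0.24, 95% interval 0.026 to 1.09), and it was not past the threshold in any of 19 alternative fits. Per kilobase of exon, the level of *Adra1a* was 3.85 to 6.52 times that of *Adra1b* in the control mice and 0.608 to 1.15 times in the ΔTAM mice. These ratios did not overlap, with *Adra1a* ahead of *Adra1b* in every control mouse and in 1 of 4 ΔTAM mice.

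*Adra2b*, the alpha-2B receptor gene, had the highest level per exon length of the 8 adrenergic receptor genes examined in every mouse. It was at 100, 130, 120, and 165 CPM in ΔTAM mice and at 233, 221, 185, and 154 CPM in control mice. ΔTAM mouse 4 lay above control mouse 4, so the groups overlapped by that pair of mice. The means were 129 ± 27.0 CPM and 198 ± 35.9 CPM (SD, n = 4), with a log2 fold change of -0.62 (SE 0.16, 95% interval -0.98 to -0.26) that was not past the threshold. It was past the threshold with DESeq2, with edgeR's exact test, with *Xist* as a covariate (-0.70), among the 5 high-*Xist* mice (-0.72), and without ΔTAM mouse 4 (-0.76). In both genotypes the low-*Xist* mice were below the high-*Xist* mice.

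*Adra2a* encodes the alpha-2A receptor, known in nerves as an inhibitor of transmitter release. Its levels were 1.02, 1.54, 1.33, and 4.82 CPM in ΔTAM mice and 4.66, 2.17, 2.28, and 2.11 CPM in control mice. One mouse in each group stood apart on the high side, and the log2 fold change of -0.37 (SE 0.49, 95% interval -1.47 to 0.73) moved to -1.11 without ΔTAM mouse 4 and to -0.011 without control mouse 1. It was not past the threshold in either fit.

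*Adrb1*, the beta-1 receptor gene, was at 2.49, 5.39, 4.49, and 4.49 CPM in ΔTAM mice and at 5.44, 6.14, 2.59, and 5.22 CPM in control mice. The lowest mouse of each group was a low-*Xist* mouse, and the ranges of the genotypes lay over each other. The log2 fold change was -0.20 (SE 0.29, 95% interval -0.83 to 0.43).

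None of the other adrenergic receptor genes examined (*Adra1d*, *Adra2c*, and *Adrb3*) passed the threshold. *Adra1d* was at 0.913 to 2.06 CPM over the 8 mice (log2 fold change 0.16, adjusted *P* = 0.858) and *Adra2c* at 0.967 to 2.75 CPM (0.06, adjusted *P* = 0.967). *Adrb3* was not tested, with 0 counts in 5 of the 8 mice and 39 counts in control mouse 3.

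**Figure D2:**
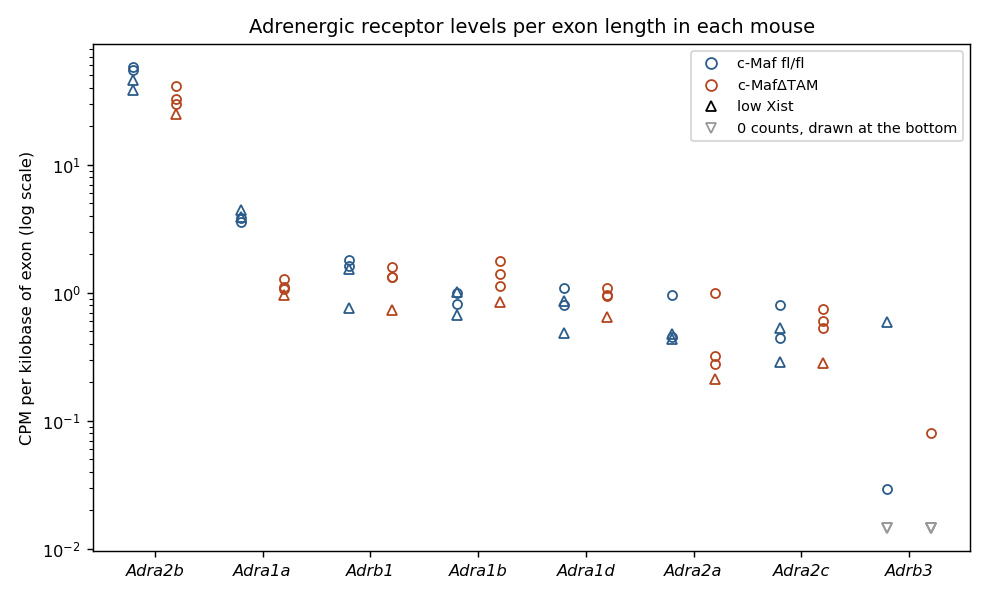
Level of 8 adrenergic receptor genes in each mouse, in CPM per kilobase of exon on a log axis, for control (blue) and ΔTAM (red) mice, with triangles for low-*Xist* mice and grey points at the bottom for 0 counts. *Adra2b* leads in every mouse, and *Adra1a* separates the genotypes, with means of 3.92 CPM per kilobase in control and 1.11 in ΔTAM mice.

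Levels of different genes can be compared after division by exon length. On that scale, in CPM per kilobase, *Adra2b* was at 49.4 ± 8.94 in control mice (SD, n = 4) and held 82.7% to 87.5% of the summed level of the 8 adrenergic receptor genes examined. *Adra1a* followed at 3.92 ± 0.35, without overlap with the gene above or below it. *Adrb1* was at 1.43 ± 0.46, *Adra1b* at 0.87 ± 0.16, *Adra1d* at 0.81 ± 0.25, *Adra2a* at 0.58 ± 0.26, and *Adra2c* at 0.52 ± 0.21, and each of these overlapped the next in the order. In ΔTAM mice *Adra2b* still led, at 32.1 ± 6.73 and 83.5% to 87.2% of the sum. *Adra1b* came next at 1.29 ± 0.39, and *Adra1a*, at 1.11 ± 0.13, ranked 4 of 8, overlapping the ranges of *Adrb1* above it and *Adra1d* below it. Whole kidneys hold vessels, glomeruli, and tubules, so lower RNA in each cell and fewer cells of a type cannot be told apart here.

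*Ddc* encodes aromatic L-amino acid decarboxylase, which turns L-DOPA into dopamine and also makes serotonin from its precursor. It was at 32.6, 54.6, 51.2, and 49.8 CPM in ΔTAM mice and at 66.4, 67.6, 53.3, and 53.7 CPM in control mice. The groups overlapped only where ΔTAM mouse 2 reached the 2 low-*Xist* control mice, and within each genotype the low-*Xist* mice were below the high-*Xist* mice. The means were 47.0 ± 9.83 CPM and 60.2 ± 7.83 CPM (SD, n = 4), and the log2 fold change of -0.36 (SE 0.15, 95% interval -0.70 to -0.017) was not past the threshold. It was past it with *Xist* as a covariate (-0.46) and among the high-*Xist* mice (-0.37).

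*Slc18a1* encodes VMAT1, which loads monoamines into secretory vesicles and is best known from the chromaffin cells of the adrenal medulla. It was at 271, 230, 222, and 210 CPM in ΔTAM mice and at 84.6, 100, 126, and 135 CPM in control mice. All 4 ΔTAM mice were above all 4 control mice, and in both genotypes the low-*Xist* mice were the highest. The means were 233 ± 26.6 CPM and 111 ± 23.2 CPM (SD, n = 4), a 2.09-fold higher level (log2 fold change 1.06, SE 0.14, 95% interval 0.75 to 1.38). The counts were 3871 to 5324 in ΔTAM mice and 1724 to 2482 in control mice. Among the 5 high-*Xist* mice the log2 fold change was 1.25, and with each mouse left out it was 0.95 to 1.17, past the threshold in 8 of 8 fits. With replicate number as a block the log2 fold change was 1.08, not past the threshold.

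Unlike *Ddc*, the genes *Th*, *Dbh*, and *Pnmt*, for other enzymes of catecholamine synthesis in chromaffin cells and nerves, were at or near 0 in the same libraries. Of *Th* (tyrosine hydroxylase, the first step of catecholamine synthesis), *Dbh* (which makes noradrenaline from dopamine), and *Pnmt* (which makes adrenaline), *Dbh* had 0 counts in all 8 mice, *Th* 1 count in 1 mouse, and *Pnmt* at most 2 counts. A count of 0 allows up to 0.135 to 0.176 CPM, which is 3 counts in these libraries. The 7 adrenal medulla markers summed to 0.832 to 9.65 CPM in ΔTAM mice and 0.767 to 8.62 CPM in control mice, with 4 of the 7 at no more than 3 counts in any mouse. The 8 sympathetic nerve markers summed to 0.650 to 2.04 CPM and 0.271 to 1.86 CPM, with 4 of the 8 at no more than 3 counts. The 6 mast and serotonin cell markers summed to 20.2 to 28.3 CPM and 23.0 to 35.2 CPM. Of these 6, 3 had no more than 3 counts in any mouse, and the highest count was 715.

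The other vesicle transporter gene, *Slc18a2*, was at 4.22, 5.03, 5.10, and 5.31 CPM in ΔTAM mice and at 4.17, 5.69, 4.41, and 3.17 CPM in control mice (log2 fold change 0.17, SE 0.19, adjusted *P* = 0.767). Per kilobase of exon, *Slc18a1* was 17.1 to 41.3 times as abundant as *Slc18a2* in control mice and 38.2 to 62.1 times in ΔTAM mice, ranges that overlapped. In both genotypes VMAT1 RNA was therefore the more abundant vesicular monoamine transporter RNA. Relative to *Ddc*, it was 1.05 to 2.08 times as abundant per kilobase in control mice and 3.48 to 6.86 times in ΔTAM mice, without overlap. *Slc18a1* moved from the second to the first place among the 9 genes per kilobase, at 20.6 ± 4.29 in control mice and 43.1 ± 4.92 in ΔTAM mice, where its range met that of *Adra2b*.

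The monoamine oxidases sit on the outer mitochondrial membrane and oxidize dopamine, noradrenaline, and serotonin. *Maoa* was at 6.31, 9.30, 9.09, and 10.1 CPM in ΔTAM mice and at 11.9, 13.3, 8.73, and 7.86 CPM in control mice. The genotypes overlapped, and within each the low-*Xist* mice were the lowest. The log2 fold change was -0.27 (SE 0.20, 95% interval -0.70 to 0.17). *Maob* was at 3.92, 5.49, 3.60, and 3.47 CPM in ΔTAM mice and at 2.16, 2.80, 3.25, and 3.17 CPM in control mice. The groups did not overlap, but the lowest ΔTAM mouse was close to the highest control mouse, and the log2 fold change of 0.54 (SE 0.22, 95% interval 0.066 to 1.01) was not past the threshold in any of 19 alternative fits. The level of *Maoa* per kilobase was 1.66 to 3.70 times that of *Maob* in control mice and 1.08 to 1.96 times in ΔTAM mice.

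**Figure D3:**
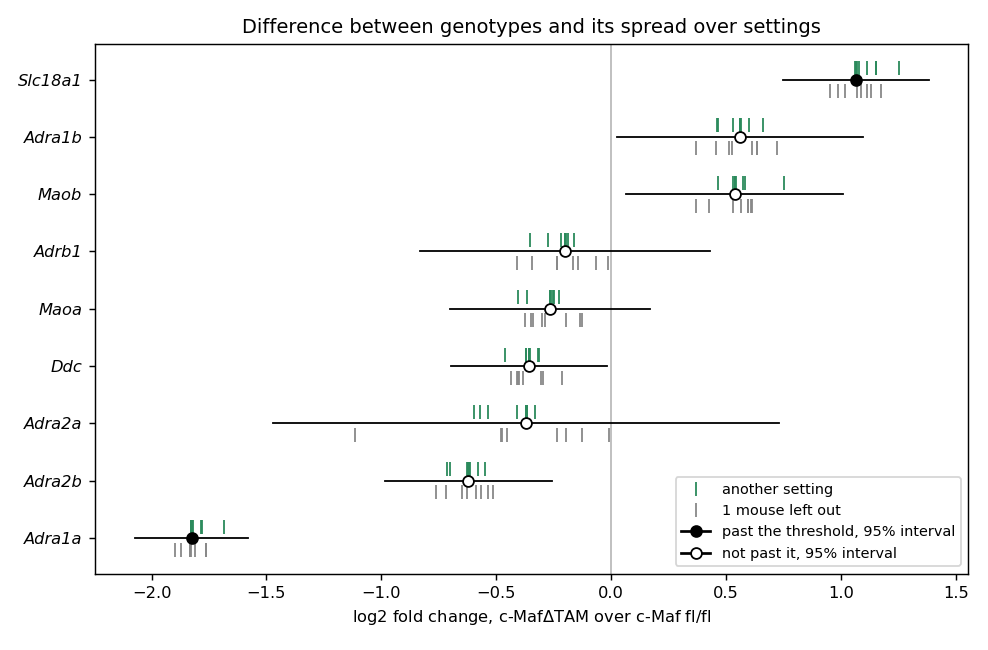
Log2 fold change of each of the 9 genes, ΔTAM over control, with its 95% interval (black; filled where past the threshold), the values under other settings (green ticks), and the values with 1 mouse left out (grey ticks). Over the settings and left-out mice *Adra1a* lies between -1.90 and -1.69 and *Slc18a1* between 0.95 and 1.25, and *Adra2a* is spread most, from -1.11 to -0.011 with 1 mouse left out.

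Of the 9 genes, 5 had the low-*Xist* mice outside the range of the high-*Xist* mice in the same direction in both genotypes, higher for *Slc18a1* and lower for *Adra2b*, *Adrb1*, *Ddc*, and *Maoa*, and so did 27.2% of all tested genes. In *Slc18a1* the low-*Xist* ΔTAM mouse was at 271 CPM against a mean of 220 CPM in the 3 high-*Xist* ΔTAM mice, and the 2 low-*Xist* control mice were at a mean of 130 CPM against 92.5 CPM. In *Ddc* the same means were 32.6 against 51.9 CPM and 53.5 against 67.0 CPM. *Adra1a* was not ordered this way, at 8.45 against 10.1 CPM and 36.1 against 32.4 CPM.

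The genes of the steps around these 9 were taken from 8 lists of the catecholamine pathway, 82 genes in the table. Of these, 70 were tested, 11 were lower past the threshold, and 0 were higher, next to 1.58% lower and 0.586% higher over all tested genes. The lists were chosen with earlier results of these data known, so nothing is read from their counts, here or list by list, against those shares. At an unadjusted *P* under 0.05, the quasi-likelihood test gave 3 higher and 14 lower of the 70. DESeq2 and edgeR's exact test also gave 0 higher, limma-trend gave 1, and with *Xist* as a covariate 4 were higher and 14 lower. The median log2 fold change of the 70 was -0.0095, next to 0.0027 for all tested genes. The 11 lower genes lay in 3 of the lists, those of L-DOPA and tyrosine uptake, of catecholamine synthesis (with its cofactor), and of breakdown.

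Uptake at the membrane held most of them, with 7 of 9 tested genes lower and a median log2 fold change of -1.02. This list too was chosen with earlier results of these data known, and the study had reported several lowered amino acid transporters. The count and the adjusted *P* values below are therefore a description. L-DOPA and its precursor tyrosine enter and leave proximal tubule cells through neutral amino acid carriers. *Slc7a8*, which encodes the basolateral carrier LAT2, was at 55.4, 126, 118, and 97.6 CPM in ΔTAM mice and at 281, 286, 211, and 233 CPM in control mice (log2 fold change -1.35, SE 0.24, adjusted *P* = 0.0265). Its partner *Slc3a2* (4F2hc) fell by 1.26 on the log2 scale (adjusted *P* = 0.000263), the apical neutral amino acid carrier gene *Slc6a19* by 1.23 (adjusted *P* = 0.0158), and *Slc7a7* by 1.20 (adjusted *P* = 9.35e-05). *Slc16a10*, the aromatic amino acid transporter gene, was at 31.0 to 37.4 CPM in ΔTAM mice and 61.7 to 84.7 CPM in control mice (log2 fold change -1.02, adjusted *P* = 0.000373). *Slc7a9* (-0.84, adjusted *P* = 0.002) and *Slc43a2* (-0.70, adjusted *P* = 0.00563) were also lower, and *Slc3a1* (-0.03, adjusted *P* = 0.936) and *Slc7a5* (0.19, adjusted *P* = 0.852) did not pass. The call for *Slc7a8* held in 3 of 8 fits with 1 mouse left out, being lost without ΔTAM mice 3 or 4 or control mice 1, 2, or 4, and that for *Slc6a19* in 6 of 8, being lost without ΔTAM mouse 3 or control mouse 1. Both calls were also lost when every gene with at least 1 count in any mouse was tested, and that for *Slc7a8* with limma-trend. With replicate number as a block, the calls for *Slc7a8* and *Slc43a2* were lost.

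**Figure D4:**
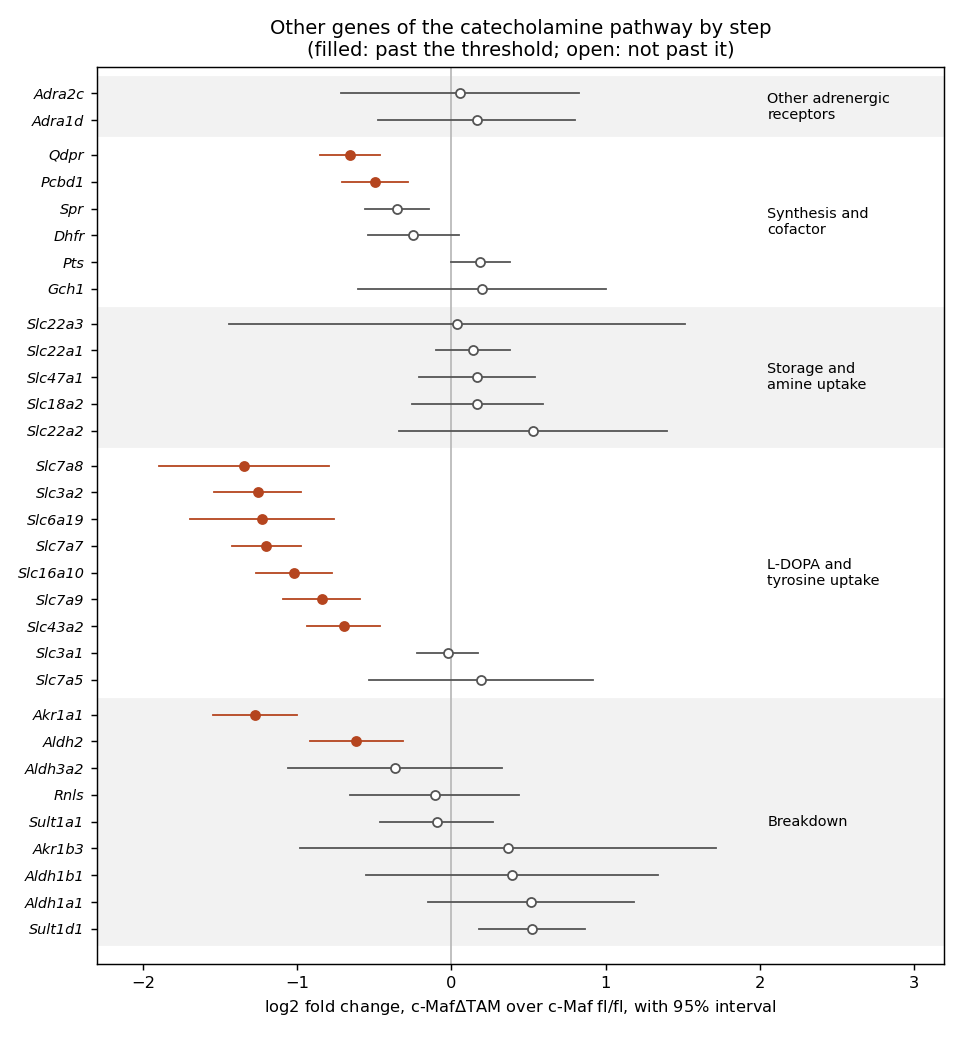
Log2 fold change with its 95% interval for the tested pathway genes of 5 lists, ΔTAM over control, filled in red where past the threshold. The uptake carriers cluster on the lower side, down to -1.35 for *Slc7a8*, while none of the tested genes for storage and amine uptake and none of the other receptors is past the threshold.

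In synthesis, *Th* and *Dbh* were not tested because of their low counts. Of the 6 tested genes of the list, 2 were lower, both of which recycle the tetrahydrobiopterin that tyrosine hydroxylase needs. *Qdpr*, encoding dihydropteridine reductase, was at 60.0 to 68.2 CPM in ΔTAM mice and 88.9 to 110 CPM in control mice (log2 fold change -0.66, adjusted *P* = 0.00197). *Pcbd1*, which encodes the dehydratase of the same cycle, was at 70.9 to 80.4 CPM and 94.3 to 125 CPM (log2 fold change -0.50, adjusted *P* = 0.0212). Its call was lost in 5 of 8 fits with 1 mouse left out (ΔTAM mice 2, 3, or 4 or control mice 3 or 4), and with replicate number as a block.

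In breakdown, 2 of 9 tested genes were lower. *Akr1a1*, an aldehyde reductase gene, was at 357 to 424 CPM in ΔTAM mice and 803 to 1109 CPM in control mice (log2 fold change -1.28, adjusted *P* = 0.000185). *Aldh2*, the mitochondrial aldehyde dehydrogenase gene, had a log2 fold change of -0.62 (adjusted *P* = 0.0426) and passed in 1 of 8 fits with 1 mouse left out, that without ΔTAM mouse 1. It did not pass with upper-quartile factors, with limma-trend, or with replicate number as a block. *Rnls*, the renalase gene, was at 2.11 to 4.31 CPM over the 8 mice (-0.11, adjusted *P* = 0.893).

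Among transporters that carry amines across the plasma membrane, none of the 5 tested genes of that list passed the threshold, and 0 did at an unadjusted *P* under 0.05 or with DESeq2, the exact test, or limma-trend. The noradrenaline transporter gene *Slc6a2* had at most 2 counts in any mouse. *Slc22a2* (OCT2, a basolateral organic cation transporter) was at 340, 183, 189, and 173 CPM in ΔTAM mice and 86.3, 108, 210, and 209 CPM in control mice. The low-*Xist* mice were the highest of each genotype, and the log2 fold change of 0.53 (SE 0.37, adjusted *P* = 0.594) became 0.90 (adjusted *P* = 6.31e-05) among the high-*Xist* mice and 0.76 (adjusted *P* = 7.11e-05) with *Xist* as a covariate.

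On the receiving side, the dopamine receptor genes were too low to test. *Drd1* had at most 8 counts in any mouse, *Drd2* and *Drd3* at most 4, *Drd5* at most 1, and *Drd4* had 0 counts in every mouse, so a difference between genotypes was not detectable at this depth. Downstream, 0 of 33 tested genes for G proteins, adenylyl cyclases, phospholipases, kinases, arrestins, RGS proteins, and phosphodiesterases passed the threshold of the quasi-likelihood test, with a median log2 fold change of -0.0050, and 2 were higher and 1 lower at an unadjusted *P* under 0.05. Of 6 genes for renin and sodium transport, 0 passed it, with a median of 0.044, and 1 was lower at an unadjusted *P* under 0.05. DESeq2, the exact test, and limma-trend called 0 genes in both lists.

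Among markers of kidney cells, the 8 markers of segments S1 and S2 summed to 8906 to 12641 CPM in ΔTAM mice and 15063 to 17102 CPM in control mice, without overlap. Of the 8, 4 were lower past the threshold, 4 did not pass, and 0 were higher, next to 1.58% lower over all tested genes. The marker lists were also chosen with earlier results known, so nothing is read from that count. The part of these segments in the differences of *Adra1a*, *Ddc*, and the uptake carriers was not tested. The 6 S3 markers summed to 309 to 1118 CPM and 333 to 1219 CPM, the 6 smooth muscle markers to 153 to 212 CPM and 178 to 221 CPM, and the 4 juxtaglomerular markers to 88.3 to 137 CPM and 78.5 to 144 CPM, with overlap between genotypes in each. In these 3 lists 0 genes passed the threshold with the quasi-likelihood test, DESeq2, the exact test, or limma-trend, and at an unadjusted *P* under 0.05 the first gave 1 higher and 1 lower S3 gene, 2 lower smooth muscle genes, and 0 juxtaglomerular genes. The 6 macrophage markers summed to 99.0 to 103 CPM in ΔTAM mice and 86.0 to 93.0 CPM in control mice, without overlap and with 0 genes past the threshold (0 also with DESeq2, the exact test, and limma-trend) and 1 higher at an unadjusted *P* under 0.05 with edgeR. The 8 endothelial markers summed to 482 to 559 CPM and 548 to 620 CPM, with 1 gene lower past the threshold (1 with DESeq2, 0 with the exact test, and 0 with limma-trend). The part of these cells in the differences was not tested.

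Over the 8 mice, among 17484 tested genes with a mean of at least 1 CPM, the gene whose standardized log2 CPM lay nearest to that of *Adra1a* was *Adap2*, at a root mean square difference of 0.0702, followed by *Mafg*, at 0.145. *Adap2* was at 14.4 to 18.2 CPM in ΔTAM mice and 46.2 to 56.7 CPM in control mice, and *Mafg*, a small Maf protein gene, at 52.5 to 59.8 CPM and 87.8 to 104 CPM. Nearest to *Slc18a1* were *Dglucy*, at 0.109, and *Mat2a*, the methionine adenosyltransferase gene, at 0.146. *Dglucy* was at 129 to 161 CPM in ΔTAM mice and 76.0 to 107 CPM in control mice, and *Mat2a* at 237 to 287 CPM and 139 to 185 CPM.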

How the data were processed

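Whole-kidney RNA of 4 *c-Maf*ΔTAM and 4 *c-Maf* fl/fl mice was sequenced after ribosomal RNA depletion with a directional kit. The authors deposited raw read counts per gene, made per the file headers with featureCounts 2.0.1 on Ensembl release 102 exons of GRCm38, each read of a pair counted separately and without use of strand, so antisense reads are included. The aligner behind the deposited counts is not given in the sources used here (the study's methods describe mapping to mm10 with CLC Genomics Workbench). The submitters' processing notes name Subread 2.0.2 and edgeR 3.36.0. Counts were scaled by TMM, filtered with filterByExpr (20149 of 55367 genes kept), and tested with edgeR 4.0.16 (R 4.3.3, robust quasi-likelihood test, Benjamini-Hochberg adjustment over all tested genes, threshold 0.05, all 8 mice, no covariate). CPM values use the TMM library sizes. CPM per kilobase is divided by exon length. Intervals on log2 fold changes are at 95%. One (1) count was worth 0.0451 to 0.0586 CPM, and intervals cover the spread between these mice. Fits were tested on simulated counts. The 9 genes and all gene lists were chosen with earlier results of these data known. Pathway genes were named if past the threshold, with the other adrenergic and the dopamine receptors, *Th*, *Dbh*, *Slc18a2*, *Slc6a2*, *Slc22a2*, and *Rnls* whatever their values, and the 2 nearest profiles for *Slc18a1* and each of the 9 genes past the threshold. Markers of adrenal medulla and sympathetic nerve could also be named. *Slc3a1* and *Slc7a5* were named after their values were seen. Some pathway genes are not reported here. No 2 libraries of the same genotype agreed within sampling noise. In 19 alternatives, the settings changed were the scaling (RLE or upper-quartile factors), the test (DESeq2 1.42.0, quantile normalization with limma-trend by limma 3.58.1, or the exact test), 2 other filters, a replicate block, *Xist* as a covariate, the 5 high-*Xist* mice, omission of mitochondrial genome genes, and each of the 8 mice left out.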

Additional observations from a re-analysis of the deposited data

Results flagged for a closer look

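In 60 groups of 4 mice (30 genes in both genotypes), 4 held a mouse whose gap to the nearest of the others exceeded Dixon's 95% critical value for its group's range, and chance flags about 1 in 20 groups. *Adra2a* was at 4.82 CPM in ΔTAM mouse 4 against 1.02 to 1.54 CPM in the other 3 mice, and at 4.66 CPM in control mouse 1 against 2.11 to 2.28 CPM. *Slc3a2* was at 60.9 CPM in ΔTAM mouse 1 against 88.6 to 93.3 CPM. *Slc22a2* was at 340 CPM in the same mouse against 173 to 189 CPM.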

How the results depend on the processing

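The 436 genes past the threshold (118 higher, 318 lower) became 887 (320 and 567) with DESeq2, 682 (256 higher) with the exact test, 1391 (530 and 861) with *Xist* as a covariate, 789 (322 higher) among the high-*Xist* mice, and 129 (18 and 111) with the replicate block, and 191 genes were higher when any gene with at least 1 count in any mouse was tested. With 1 mouse left out the range was 239 to 452 (51 to 142 higher, 188 to 310 lower), being lowest without ΔTAM mouse 3 (239), then without ΔTAM mouse 2 (256) and control mouse 3 (285). Of the 9 genes, 4 were past the threshold with *Xist* as a covariate and 4 among the high-*Xist* mice (*Adra1a*, *Slc18a1*, *Adra2b*, *Ddc*), 1 (*Adra1a*) with the replicate block, and 2 to 3 with 1 mouse left out. Of the pathway genes, 18 passed with *Xist* as a covariate, 7 with the block, and 7 to 11 with 1 mouse left out, 7 without ΔTAM mouse 3.

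Deviations of same-numbered mice from their group means correlated at -0.37, 0.15, -0.11, and -0.33, and for no replicate number were both mice each other's best match. Whether the replicate numbers pair the mice cannot be told from these values. Under the replicate block *Slc18a1* had a log2 fold change of 1.08, not past the threshold, and the calls of *Pcbd1* (adjusted *P* = 0.136 with edgeR), *Slc7a8* (0.0840), *Slc43a2* (0.0892), *Aldh2* (0.182), *Dglucy* (0.122), and *Mat2a* (0.0907) were lost. *Adra1a* was past the threshold in all 19 alternatives and *Slc18a1* in 18. None of the 9 genes changed sign in any of the 19. Signs turned for *Adra2c* (-0.014 with quantile normalization, -0.12 with *Xist* as a covariate, -0.14 to 0.34 with 1 mouse left out) and *Rnls* (0.093 among the high-*Xist* mice, -0.29 to 0.056 with 1 mouse left out), and with 1 mouse left out for *Adra1d* (-0.016 to 0.34), none past the threshold. *Maf* was at -4.28 (adjusted *P* = 0.0516) under the block and -3.87 (adjusted *P* = 0.108) among the high-*Xist* mice. The cause of these shifts was not tested. Genes under about 10 CPM rest on few counts, 20 to 136 for *Adra2a* and *Adrb1*.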
